A study of Mus musculus with 6 samples.

Results

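A set of 8 genes of thyroid hormone handling was followed in the mouse retina after titanium dioxide nanoparticles had been placed in the eye: Crym, Ttr, Slco1c1, Dio2, Dio3, Thra, Thrb and Rxrg. They were taken as every gene probe on the array whose name is one of these symbols, which gave 12 probes of 39429, for 8 genes of the 26153 that could be tested. The members were chosen by their function, but with their log2 ratios against the control on these arrays already known, so that they count as selected on those ratios. Each member's ratio against the control is therefore given as a description, with no p-value, and for the members only the difference between the doses is tested. Other genes of the pathway are tested against PBS.

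The study injected 8-week-old male C57BL/6 mice in the right vitreous, the gel in front of the retina, and took the retinas at day 7. The groups were a nanoparticle dose of 10 times PTC (10PTC), the dose that the labels call PTC, and phosphate-buffered saline (PBS) as the control. Each group had 12 mice, and 4 retinas went into a tube, giving 3 pools a dose. Every pool was hybridised to 1 array in the dye Cy5 against PBS retina RNA in Cy3, which made 6 arrays with 60-base probes. All groups are of 1 strain and sex, uninjected eyes are not analysed here, and no source used here gives the size and coating of the particles. Values below are log2 ratios of treated over PBS, on which 1 is a doubling, and errors are SDs over 3 pools.

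Thyroid hormone reaches the retina mainly as thyroxine (T4), is carried into cells by membrane transporters, and is turned by deiodinases into the active form T3 or into inactive products. T3 binds nuclear receptors, which sit on DNA mostly as dimers with a retinoid X receptor and switch target genes. In the retina this pathway is best known from cones, the cells of colour vision, in which a form of the Thrb receptor sets the choice between opsins. Mu-crystallin, the product of Crym, holds T3 in the cytosol with the help of NADPH, and is also an enzyme (ketimine reductase) of lysine breakdown.

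All arrays carried signal for retina. All 12 rod markers on the list were measured. Over all spots other than controls, the median signal was 187 to 347 in Cy5 and 153 to 221 in Cy3. The median local backgrounds were 47 to 48 and 26 to 29. The 3 arrays at 10PTC shared slide 2 with PTC replicate 3, and the first 2 PTC replicates were on slide 1, so the dose and the slide overlap in part. Dyes were not swapped, so that in a ratio against PBS an effect of the dye on a probe cannot be told apart from treatment. Such an effect is shared by both doses and drops out of the difference between them. Markers of neighbouring tissue also moved. Of 14 skeletal muscle genes 13 were lower at 10PTC and 13 at PTC, with median log2 ratios of -2.32 and -2.86 (12 and 12 with median centring). The 10 lens genes varied between arrays, with array medians of -0.10 to 0.73 at 10PTC and of -0.62 to 0.72 at PTC. The part of these tissues in the results on thyroid hormone genes was not tested. In pooled tissue, fewer cells of a type and less RNA per cell cannot be told apart.

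The probes that carry the results are shown first, since the 2 probes of Thra and the 2 of Rxrg gave different ratios. The stretches below are the 3′ ends of probes, 30 bases each, except for the Thra probe over a splice junction, which is given whole. Capitals mark AATAAA, the usual signal for cutting and polyadenylating a transcript, where a printed stretch holds it.
Crym, chromosome 7: aaccaggtaaccatttcttctgttaagggg
Dio2, chromosome 12: ctcagtctgtggttggatgtagtcacacga
Thra upstream, chromosome 11: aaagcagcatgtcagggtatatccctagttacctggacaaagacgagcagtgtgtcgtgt
Thra downstream, chromosome 11: aaccaagcaaggggagaatatagatgaaga
Rxrg upstream, chromosome 1: tgcttgtAATAAAgacaacctttctacaca
Rxrg downstream, chromosome 1: gccaagcctctgtacatataattggtttaa
By the array design, in mm9 coordinates, the Crym probe lies on the minus strand at chr7:127329970-127330029 and the Dio2 probe on the minus strand at chr12:91963235-91963294. The Thra probes lie on the plus strand at chr11:98617475-98618281, a span of 807 bases that the 60-base probe covers across an intron, and at chr11:98626356-98626415. The Rxrg probes lie on the plus strand at chr1:169569496-169569555 and at chr1:169569624-169569683. The array design assigns each of them to RefSeq transcripts of its gene. No annotation of that build was used here to place a probe in coding sequence or in a UTR, but the Crym and Dio2 probes have a stop codon in every reading frame.

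Crym had by far the highest ratios of the set. The log2 ratio was 1.65, 1.93 and 1.89 on 10PTC replicates 1, 2 and 3, and 2.64, 1.20 and 1.61 on PTC replicates 1, 2 and 3. All 6 arrays were above a doubling, the 10PTC arrays lay close together, and the PTC arrays spread on both sides of them. The mean was 1.82 ± 0.15 at 10PTC (n = 3), or 3.54-fold over PBS, and 1.82 ± 0.74 at PTC (n = 3), or 3.52-fold. Ranked by ratio among 26153 genes, Crym was number 12 at 10PTC and number 22 at PTC. The spot signal before correction was 43452, 43415 and 43378 scanner units in Cy5 on the 10PTC arrays and 57355, 22977 and 34250 on the PTC arrays, against 7055 to 7938 in the PBS channel of all 6.

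**Figure D1:**
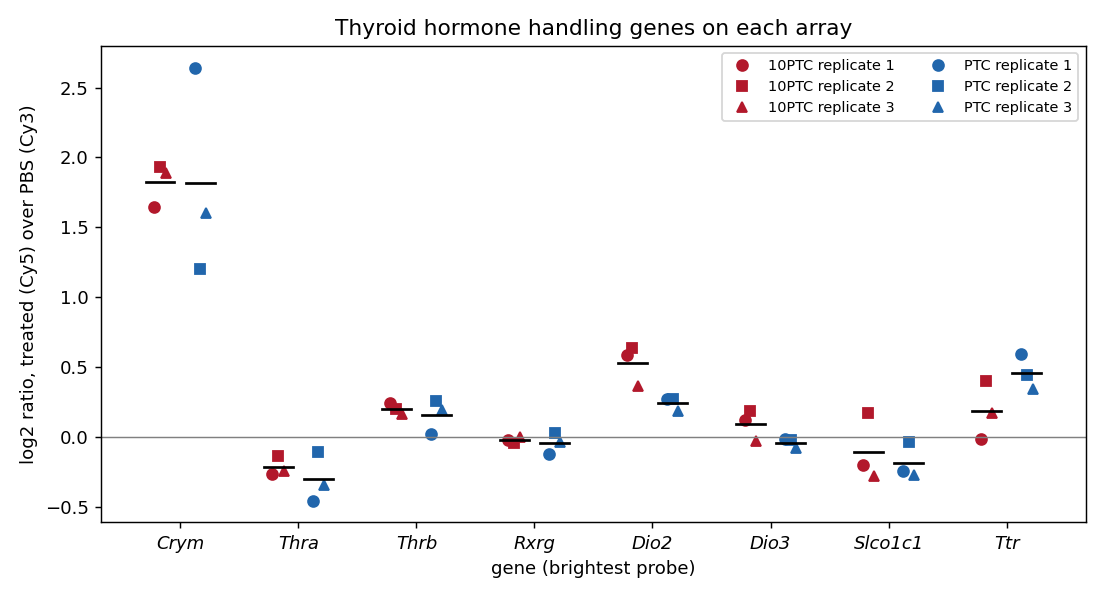
Log2 ratio of treated (Cy5) over PBS (Cy3) for the brightest probe of each of the 8 genes, with 1 point per array, 10PTC left of PTC, and a bar at the mean of 3. Crym lies between 1.20 and 2.64 on all 6 arrays, while the other 7 genes stay within 0.64 of 0.

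**Figure D2:**
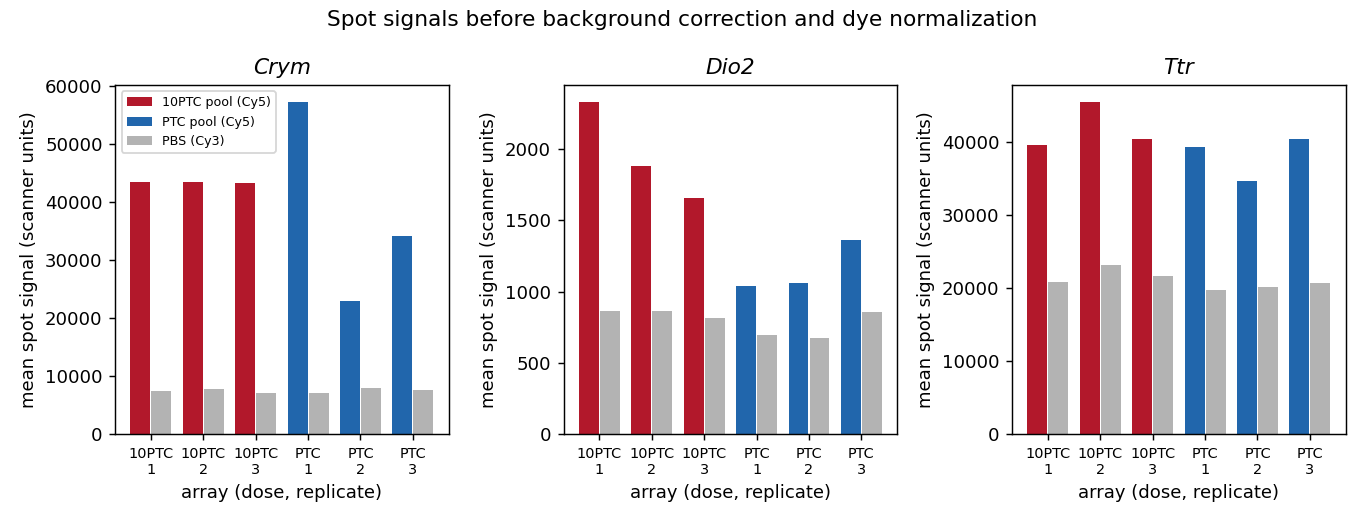
Mean spot signal in scanner units, before background correction and dye normalization, for Crym, Dio2 and Ttr on each array, with the treated pool in colour beside PBS in grey. The PBS bars of Crym vary little (7055 to 7938) while its treated bars range from 22977 to 57355.

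The genes whose 6 ratios ran closest to those of Crym are known from microglia and macrophages, except for 2. Compared were the 16808 genes with a matched symbol and signal well above background in at least 1 dye on each of the 6 arrays. By root mean square difference over these arrays, the nearest was Trem2, a lipid receptor of microglia, at 0.196 log2 units. Next came Ms4a7 (0.256), a membrane protein of macrophages, Ctss (0.271), the protease cathepsin S, and Lyz2 (0.284), a lysozyme of myeloid cells. The other 2 were Olfr160 (0.284), an olfactory receptor gene, and Cp (0.294), which encodes the copper protein ceruloplasmin and in the retina is known from Muller glia. The Olfr160 ratio depended on the processing, at 1.42 to 5.24 for 10PTC and 1.23 to 4.46 for PTC over the alternative settings. Trem2 averaged 1.63 ± 0.06 at 10PTC and 1.91 ± 0.80 at PTC, and Cp 1.67 ± 0.23 and 1.56 ± 0.61 (n = 3 each). The measure is taken on the ratios themselves, so that only genes raised about as far as Crym could come near, whatever their pattern. It describes likeness over 6 arrays that share a control and labelling, and no more.

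Cell type markers were read beside Crym. Counts here and in later marker lists are of genes past limma's adjusted p of 0.05. With loess 14.4% of all genes were higher and 13.3% lower at 10PTC, and 16.8% and 16.3% at PTC. The microglia list had 10 measured genes, of which 9 were higher at 10PTC and 9 at PTC, with medians of 0.89 and 1.08. The median of that list was 0.79, 0.81 and 1.01 on the 10PTC arrays and 1.52, 0.60 and 1.11 on PTC replicates 1, 2 and 3. The PTC arrays stood in the same order for the list as for Crym and the 10PTC arrays did not, and the astrocyte list had that PTC order too (0.44, 0.12 and 0.26). Of the 2 brightest microglia genes, the growth factor receptor gene Csf1r averaged 0.40 and 0.64 and the integrin gene Itgam 0.28 and 0.33, at 10PTC and at PTC. The list of Muller glia, the main glia of the retina, depended on the scaling. With loess, 4 of 10 genes were higher and 3 lower at either dose, while with median centring 7 were higher and 1 lower at 10PTC and 6 higher and 1 lower at PTC. With loess it had array medians of 0.15 to 0.25 at 10PTC and of -0.03 to 0.32 at PTC, and again with PTC replicate 1 at the top. Its brightest genes were Apoe, a lipid carrier, at 0.86 and 0.67, and Dkk3, a secreted protein of Muller glia, at 0.52 and 0.51. The part of these cell types in the Crym ratio was not tested.

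For Crym the doses did not separate. In limma, 10PTC minus PTC was 0.01 with an SE of 0.33, a 95% interval of -0.76 to 0.77 and an adjusted p of 0.998 over all genes. The interval is wide, since the PTC pools differed so much, and the difference was 0.42 without PTC replicate 1 and -0.30 without PTC replicate 2.

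Ttr and Slco1c1 bring the hormone in. Ttr encodes transthyretin, the carrier of T4 and of retinol-binding protein, which in the eye is made by the pigment epithelium. Its log2 ratio was -0.01, 0.40 and 0.17 on 10PTC replicates 1, 2 and 3, and 0.59, 0.44 and 0.34 on PTC replicates 1, 2 and 3. All PTC arrays were above 0, and 1 of 3 10PTC arrays was not, with a small overlap between the doses. The means were 0.19 ± 0.21 at 10PTC and 0.46 ± 0.13 at PTC (n = 3 each), or 1.14-fold and 1.37-fold. With median centring they were 0.50 and 0.70, and without 10PTC replicate 2 the 10PTC mean was 0.08. The doses differed by -0.27 (SE 0.12), with a limma adjusted p of 0.612 and an unadjusted p of 0.0484. With the slide as a block the difference was -0.16. The spot was bright, at 34704 to 45536 units in Cy5 against 19722 to 23107 in Cy3.

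Markers of tissue that makes transthyretin were read beside it. Of 11 pigment epithelium genes (Ttr left out) 4 were higher and 1 lower at 10PTC, and 4 higher and none lower at PTC. With median centring 5 were higher and 1 lower at 10PTC, and 9 higher and 1 lower at PTC, with medians of 0.20 and 0.39. With loess the array medians of that list were 0.05 to 0.24 at 10PTC and 0.14 to 0.41 at PTC. Its brightest genes were Dct, an enzyme of pigment synthesis, at 0.49 at 10PTC and 0.57 at PTC, and Rdh5, a retinol dehydrogenase, at -0.23 and 0.18. The 8 genes of choroid plexus and ciliary epithelium had medians of 0.04 and 0.01. Of these, the brightest was Folr1, at -0.08 at 10PTC and 0.08 at PTC, followed by the channel gene Clic6, at 0.17 and 0.39. The part of either tissue in the Ttr ratio was not tested.

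Slco1c1 encodes OATP1C1, a carrier of T4 known from brain capillaries and astrocytes. Its brighter probe had log2 ratios of -0.20, 0.17 and -0.28 on the 10PTC arrays and -0.25, -0.04 and -0.27 on the PTC arrays, replicates 1 to 3. Only 10PTC replicate 2 was above 0, for both probes of the gene, and the doses overlapped. The means were -0.11 ± 0.24 at 10PTC and -0.19 ± 0.13 at PTC (n = 3 each), and with median centring in place of loess the first turned to 0.05 while the second was -0.03. The doses differed by 0.08 (SE 0.13, 95% interval -0.22 to 0.38, limma adjusted p = 0.880). Endothelial markers had medians of 0.10 and -0.02 over 11 genes.

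The deiodinases Dio2 and Dio3 act against each other: the first makes T3 from T4, and the second inactivates both. Dio2 had log2 ratios of 0.58, 0.64 and 0.36 on 10PTC replicates 1, 2 and 3, and 0.27, 0.27 and 0.19 on PTC replicates 1, 2 and 3. Every 10PTC array was above every PTC array, and all 6 were above 0. The means were 0.53 ± 0.14 at 10PTC and 0.24 ± 0.05 at PTC (n = 3 each), or 1.44-fold and 1.18-fold over PBS, and 0.74 and 0.42 with median centring. The lowest 10PTC ratio and the highest PTC ratio were 0.36 and 0.27.

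Dio2 was the 1 member of 8 whose doses did not overlap with 10PTC higher, against 8.92% of all 26153 genes. None of the 8 lay apart with 10PTC lower, against 6.6% of all genes. In limma the difference was 0.28 (SE 0.08, 95% interval 0.09 to 0.48) with an unadjusted p of 0.0106 and an adjusted p of 0.570 over all genes, so that it did not pass. The estimate was 0.23 to 0.37 when any 1 array was left out and 0.34 with the slide as a block. PTC replicate 3, which shared its slide with the 10PTC arrays, had the lowest Dio2 ratio of all. From 1 array an effect of the slide cannot be told apart from that of the pool. In the brain, Dio2 is known from astrocytes and related glia. The astrocyte list had 6 genes, with medians of 0.19 at 10PTC and 0.22 at PTC. Of these, 2 were higher at either dose, and 0 were lower at 10PTC and 1 at PTC. The brightest were Aldh1l1 (0.54 and 0.48) and S100b (-0.08 and 0.08), and the highest ratios were those of Gfap (1.44 and 1.61), a filament of reactive glia. The part of astrocytes in the Dio2 ratio was not tested.

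Among the 5 members with a matched promoter, only Dio2 held the rare motif TGACGTCA. The stretch below is RefSeq sequence of the GRCm38.p6 build, at chr12:90738989-90739288 on the minus strand, from 250 bases before to 50 bases after the start of the gene, and is shown because the Dio2 doses stood apart. Capitals mark TGACGTCA, the palindrome read by the cyclic AMP response factor CREB, which starts at base 156, and TATAAA, a box found ahead of the start of many genes, which begins at base 221.
Dio2 promoter: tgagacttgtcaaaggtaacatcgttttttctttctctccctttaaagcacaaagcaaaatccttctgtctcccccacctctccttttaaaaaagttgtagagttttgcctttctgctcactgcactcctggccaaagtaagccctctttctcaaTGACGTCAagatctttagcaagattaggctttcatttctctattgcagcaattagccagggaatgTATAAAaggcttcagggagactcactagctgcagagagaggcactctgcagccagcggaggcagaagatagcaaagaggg
Searched on both strands, TGACGTCA was in 588 of 32851 mouse promoters of this length (1.79%) and TATAAA in 13.6%. Promoters could be matched for 5 of the 8 members (7 promoters). TATAAA was also in the promoters of Slco1c1 and Dio3 and in 1 of 2 Thrb promoters. The half-site of thyroid hormone receptors, AGGTCA, was in 1 of 2 Rxrg promoters and in 1 of 2 Thrb promoters, against 16.3% of all. The direct repeat of that half-site with 4 bases between (DR4) was in none of the 7 and in 5 of all 32851. These are matches of letters in a short window.

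Dio3 was near the limit of detection and showed no clear direction. The log2 ratio was 0.12, 0.18 and -0.03 on the 10PTC arrays and -0.02, -0.02 and -0.08 on the PTC arrays, replicates 1 to 3. 10PTC replicates 1 and 2 lay above the rest, and 10PTC replicate 3 lay among the PTC arrays. The means were 0.09 ± 0.11 and -0.04 ± 0.04 (n = 3 each), the first of which turned to -0.05 with median centring. The spot signal was only 74.8 to 149 units in Cy5 and 84.5 to 119 in Cy3, and stood well above background on 5 of 6 arrays in each channel. The doses differed by 0.13 (SE 0.07, 95% interval -0.04 to 0.30, limma adjusted p = 0.671).

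Thra encodes the alpha receptor of T3, with splice forms that differ at their 3′ end and of which not all bind hormone. Its 2 probes disagreed. The downstream probe, the brighter, had log2 ratios of -0.27, -0.14 and -0.24 on the 10PTC arrays and -0.46, -0.11 and -0.35 on the PTC arrays, replicates 1 to 3. The upstream probe had 0.19, 0.19 and 0.17 on the 10PTC arrays and -0.08, 0.35 and 0.09 on the PTC arrays. The downstream probe was below 0 on all 6 arrays and the upstream probe above 0 on all but PTC replicate 1. Their means were -0.22 ± 0.07 against 0.18 ± 0.01 at 10PTC and -0.30 ± 0.18 against 0.12 ± 0.21 at PTC (n = 3 each). With median centring the downstream mean at 10PTC turned to 0.02.

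On every array, the upstream Thra ratio was above the downstream one, by 0.33 to 0.46. The difference averaged 0.40 ± 0.06 at 10PTC and 0.42 ± 0.04 at PTC, and it had this sign on all 6 arrays with loess, with median centring and in the scanner software's processed signals. The probes start 8881 bases apart. The array design gives them 1 RefSeq transcript in common, while Ensembl transcripts are listed for the upstream probe only. Among 5080 genes with 2 probes, 382 had probes as far apart or farther (7.52%), the median distance was 0.13, and 46.6% had the same sign on all 6 arrays.

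Thrb encodes the beta receptor, whose cone form is needed for the opsin of middle wavelengths. Its upstream and brighter probe, at chr14:18868800-18868859, had log2 ratios of 0.24, 0.20 and 0.16 on the 10PTC arrays and 0.02, 0.25 and 0.19 on the PTC arrays, replicates 1 to 3. All were above 0, with PTC replicate 1 the lowest. The means were 0.20 ± 0.04 at 10PTC and 0.16 ± 0.12 at PTC (n = 3 each), and 0.42 and 0.33 with median centring. With the mean of both probes the 10PTC value was 0.11. The downstream probe, at chr14:18869432-18869491, averaged 0.02 ± 0.06 and 0.10 ± 0.08. The probes differed by 0.01 to 0.27, which is ordinary, since 53.6% of genes with 2 probes differed as much.

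Rxrg encodes the gamma retinoid X receptor, a dimer partner of thyroid hormone receptors that cones and ganglion cells use. Its probes start only 128 bases apart and yet disagreed on all arrays. The upstream and brighter probe had log2 ratios of -0.02, -0.04 and -0.00 on the 10PTC arrays and -0.12, 0.03 and -0.04 on the PTC arrays, replicates 1 to 3. The downstream probe had -0.43, -0.50 and -0.33 on the 10PTC arrays and -0.73, -0.56 and -0.35 on the PTC arrays. The upstream probe stayed near 0 throughout, and no downstream value reached any upstream value. The means were -0.02 ± 0.02 against -0.42 ± 0.08 at 10PTC and -0.04 ± 0.08 against -0.55 ± 0.19 at PTC (n = 3 each). Median centring moved the upstream means to 0.20 and 0.11.

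The downstream Rxrg ratio was below the upstream one by 0.31 to 0.61 on the 6 arrays with loess, and it was below on all 6 with median centring and in the scanner software's processed signals too. Of the 5080 genes with 2 probes, 5.73% had probes this far apart. The upstream probe holds an AATAAA, in capitals among the probe sequences above, and the downstream probe starts beyond it, 68 bases after the end of the first. Of all 39429 probes 12.6% hold these letters, and the labelling used a primer of T bases, which anneals to poly(A). The array design lists 2 RefSeq transcripts for both probes but no Ensembl transcript in common. Whether transcripts ending at different sites account for the gap was not tested.

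**Figure D3:**
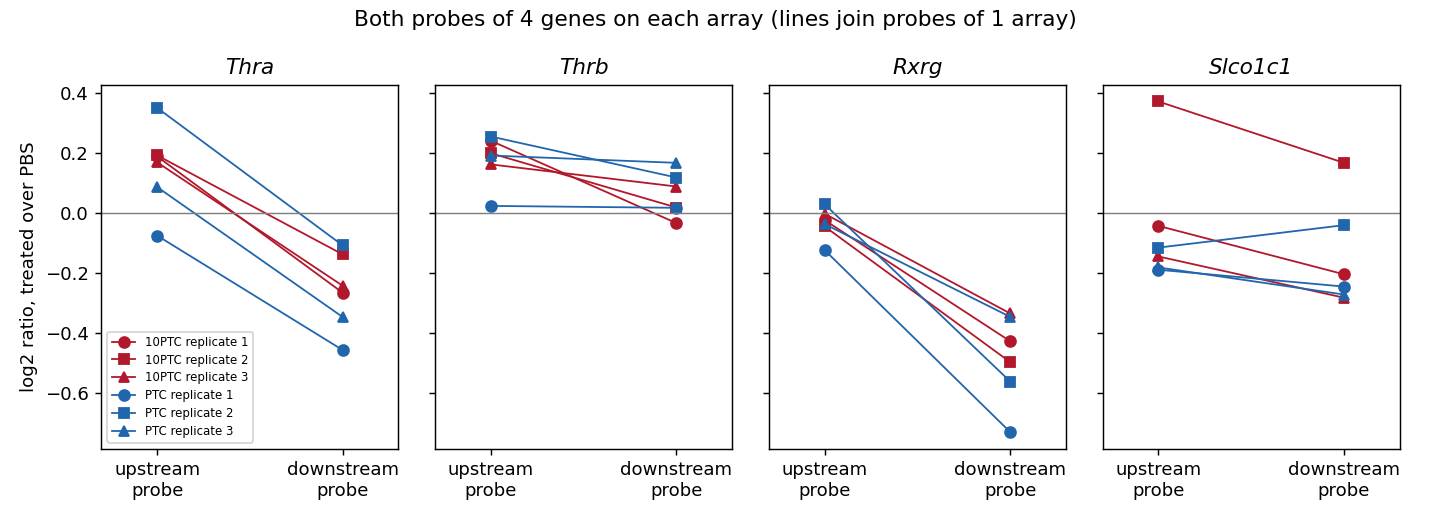
Log2 ratio of treated over PBS at the upstream and the downstream probe of the 4 genes with 2 probes, with a line for each array, 10PTC in red and PTC in blue. For Thra and Rxrg all 6 lines fall from the upstream to the downstream probe, by 0.33 to 0.46 and by 0.31 to 0.61.

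Cone markers and ganglion cell markers were read beside the receptors. Of 11 cone genes 1 was higher and 2 lower at 10PTC, and 2 higher and 3 lower at PTC, with medians of -0.08 and -0.06. With median centring the cone medians turned to 0.21 and 0.16. The brightest cone genes were Pde6h, a phosphodiesterase subunit, at -0.16 and -0.16, and Guca1a, an activator of guanylate cyclase, at 0.16 and 0.23. Of 11 ganglion cell genes 8 were lower at either dose, with medians of -0.44 at 10PTC and -0.49 at PTC, and of -0.19 and -0.32 with median centring. The part of these cells in the Thra, Thrb and Rxrg ratios was not tested.

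Against PBS, 3 of the 8 members were past limma's adjusted p of 0.05 at 10PTC, all of them higher, where 27.7% of all genes were past it and 14.4% were past it and higher. At PTC 4 of the 8 were, 3 higher and 1 lower, where 33.1% of all genes were, 16.8% higher and 16.3% lower. Since the members were selected on these ratios, the counts are no test of them and nothing is read from them. The members' median was 0.14 at 10PTC and 0.06 at PTC, beside 0.00 over all genes at either dose. In the test between the doses none of the 8 passed, and neither did any of the 26153 genes (0%), although 2133 had an unadjusted p under 0.05. For the receptors, 10PTC minus PTC was 0.09 for Thra (95% interval -0.14 to 0.31), 0.04 for Thrb (-0.13 to 0.22) and 0.02 for Rxrg (-0.13 to 0.17), with adjusted p-values of 0.818, 0.888 and 0.943 in limma. These p-values measure the spread among pools.

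**Figure D4:**
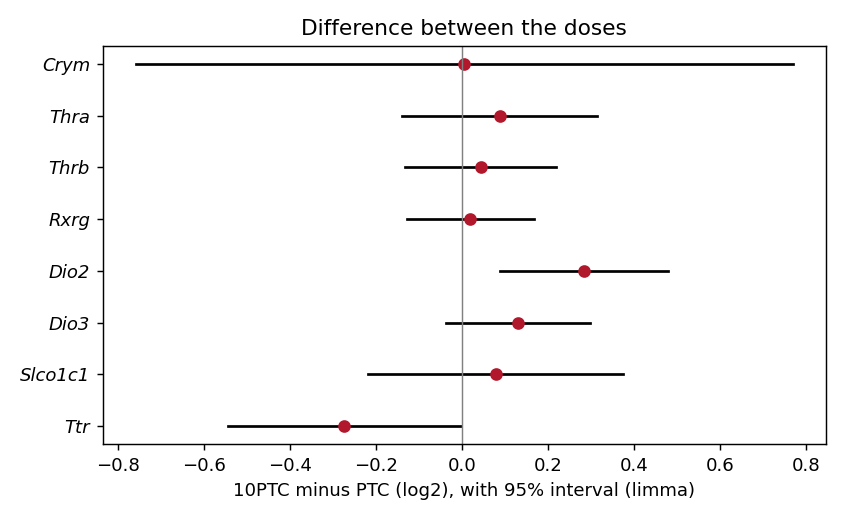
Difference in log2 ratio, 10PTC minus PTC, for the brightest probe of each gene, with its 95% interval from limma. The intervals of Dio2 (0.09 to 0.48) and Ttr (-0.54 to -0.00) lie to one side of 0, and the Crym interval (-0.76 to 0.77) is the widest of the 8.

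Beyond the 8 members, 52 further genes of the pathway were measured. At 10PTC 18 of them passed (34.6%), 8 higher and 10 lower, and at PTC 24 (46.2%), 9 higher and 15 lower, against 27.7% and 33.1% of all genes. Their medians were -0.03 and -0.06. The direction depends on the scaling. With median centring 26 passed at 10PTC, 24 of them higher, and 23 at PTC, 19 of them higher. Of all 26153 genes, 14661 then passed at 10PTC, 9651 of them higher, and 12444 at PTC, 8208 of them higher. The pathway count also depends on the arrays. At 10PTC only 2 passed without replicate 1, 8 without replicate 2, 2 without replicate 3 and 0 with the slide as a block. Without PTC replicates 1, 2 and 3 in turn, 22, 19 and 13 passed at 10PTC. At PTC 15 passed without replicate 1 and 12 without replicate 3, while none passed within slide 1 and 2 within slide 2. The ratios leave out the spread of the PBS RNA itself.

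Of 8 hormone transporters measured, 2 rose and none fell at 10PTC, where 14.4% of all genes rose and 13.3% fell. At PTC 4 rose and none fell, where 16.8% of all genes rose and 16.3% fell. The list had medians of 0.09 and 0.25 (0.28 and 0.33 with median centring). Slco2b1, a carrier of organic anions known from endothelium and microglia, rose by 0.48 ± 0.08 at 10PTC (limma adjusted p = 0.0134) and by 0.48 ± 0.29 at PTC (0.0110). Its log2 ratios were 0.39, 0.52 and 0.54 on the 10PTC arrays and 0.73, 0.16 and 0.54 on the PTC arrays, replicates 1 to 3. Slco1a4, a carrier of brain capillaries, rose at PTC, by 0.23 ± 0.07 (0.0107), and had 0.10 ± 0.06 at 10PTC. The rise of Slco2b1 at 10PTC no longer passed when any 1 of the 3 arrays of that dose was left out or with the slide as a block.

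Of the 14 receptor partners and coregulators, 3 rose and 3 fell at 10PTC and 2 rose and 7 fell at PTC with loess. Of all genes 14.4% rose and 13.3% fell at 10PTC, and 16.8% rose and 16.3% fell at PTC. The same shares stand beside the loess counts of the lists below. With median centring 7 rose and none fell at 10PTC, and 4 rose and 1 fell at PTC. Rxrb, the beta retinoid X receptor gene, fell by 0.32 ± 0.12 at 10PTC (limma adjusted p = 0.00784) and by 0.39 ± 0.07 at PTC (0.00337). The coactivator genes Crebbp and Ncoa2 rose, by 0.24 ± 0.04 and 0.22 ± 0.08 at 10PTC (0.0203 and 0.0225) and by 0.28 ± 0.14 and 0.28 ± 0.09 at PTC (0.0109 and 0.00795). With median centring Rxrb was at -0.08 at 10PTC and did not pass. Without 10PTC replicate 1, 0 of these 3 passed at 10PTC.

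Of 12 genes known to answer to T3, 1 rose and 3 fell at 10PTC and 1 rose and 4 fell at PTC with loess. With median centring 3 rose and 1 fell at 10PTC, and 2 rose and none fell at PTC. The medians were -0.10 and -0.09 with loess, and 0.02 and 0.04 with median centring. Klf9, a transcription factor that T3 induces in the brain, fell by 0.37 ± 0.14 at 10PTC (limma adjusted p = 0.00548) and by 0.30 ± 0.05 at PTC (0.00886). Its ratios were -0.45, -0.46 and -0.22 on the 10PTC arrays and -0.27, -0.35 and -0.27 on the PTC arrays, all below 0. Thrsp, named for its response to the hormone in liver, fell by 0.30 ± 0.02 at 10PTC (0.00990) and by 0.33 ± 0.14 at PTC (0.00594). Neither passed at either dose with median centring, and Klf9 did not with the mean of its probes. Dbp, a transcription factor of the daily clock, fell by 0.42 ± 0.04 at 10PTC (0.00457), and was at -0.10 ± 0.15 at PTC and, with median centring, at -0.10 at 10PTC. Me1, malic enzyme, rose by 0.37 ± 0.04 at PTC (0.00154) and had 0.16 ± 0.04 at 10PTC (0.0260).

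The enzyme role of mu-crystallin lies in lysine breakdown. Of 7 genes of that pathway, 1 rose and 3 fell at 10PTC, and 2 rose and 3 fell at PTC with loess. With median centring 2 rose and 1 fell at 10PTC, and 2 rose and 2 fell at PTC. Aass, the first enzyme of the saccharopine route, rose by 0.32 ± 0.15 at 10PTC (limma adjusted p = 0.0205) and by 0.34 ± 0.16 at PTC (0.0140). Aldh7a1, an aldehyde dehydrogenase downstream of it, rose by 0.21 ± 0.05 at PTC (0.00800), but by 0.04 with the mean of its probes, which did not pass, and had 0.13 ± 0.02 at 10PTC. Pipox, the oxidase of pipecolic acid, fell by 0.24 ± 0.08 at 10PTC (0.0228). At 10PTC, Aass and Pipox each did not pass in 6 of 21 alternative settings. Dhtkd1 fell by 0.20 ± 0.03 at 10PTC (0.0127) and Gcdh by 0.29 ± 0.06 at PTC (0.00418), and both act in late steps of lysine breakdown. With loess no gene of these 7 had a mean ratio above 0.34, beside 1.82 for Crym.

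Of 11 cone opsin genes and their regulators, 1 rose and 1 fell at 10PTC, and none rose and 1 fell at PTC. With median centring 7 rose and none fell at 10PTC, and 5 rose and 1 fell at PTC. Opn1sw, the short wavelength opsin that the Thrb and Rxrg dimer holds down, fell by 0.34 ± 0.25 at 10PTC (limma adjusted p = 0.0278) and by 0.46 ± 0.08 at PTC (0.00871). Its ratios were -0.23, -0.63 and -0.16 on the 10PTC arrays and -0.55, -0.40 and -0.42 on the PTC arrays. At 10PTC it was -0.20 without replicate 2, and it did not pass when any 1 of the 3 arrays was left out, nor with median centring (-0.19). Opn1mw, the middle wavelength opsin, had -0.05 and -0.16 and passed at neither dose. Neurod1, a factor that sustains Thrb expression, rose by 0.14 ± 0.03 at 10PTC (0.0411) and was at -0.00 ± 0.04 at PTC. The rise at 10PTC did not pass in 10 of 21 alternative settings. Over all 21 the adjusted p reached 0.216 and the value ranged from 0.12 to 0.38.

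**Figure D5:**
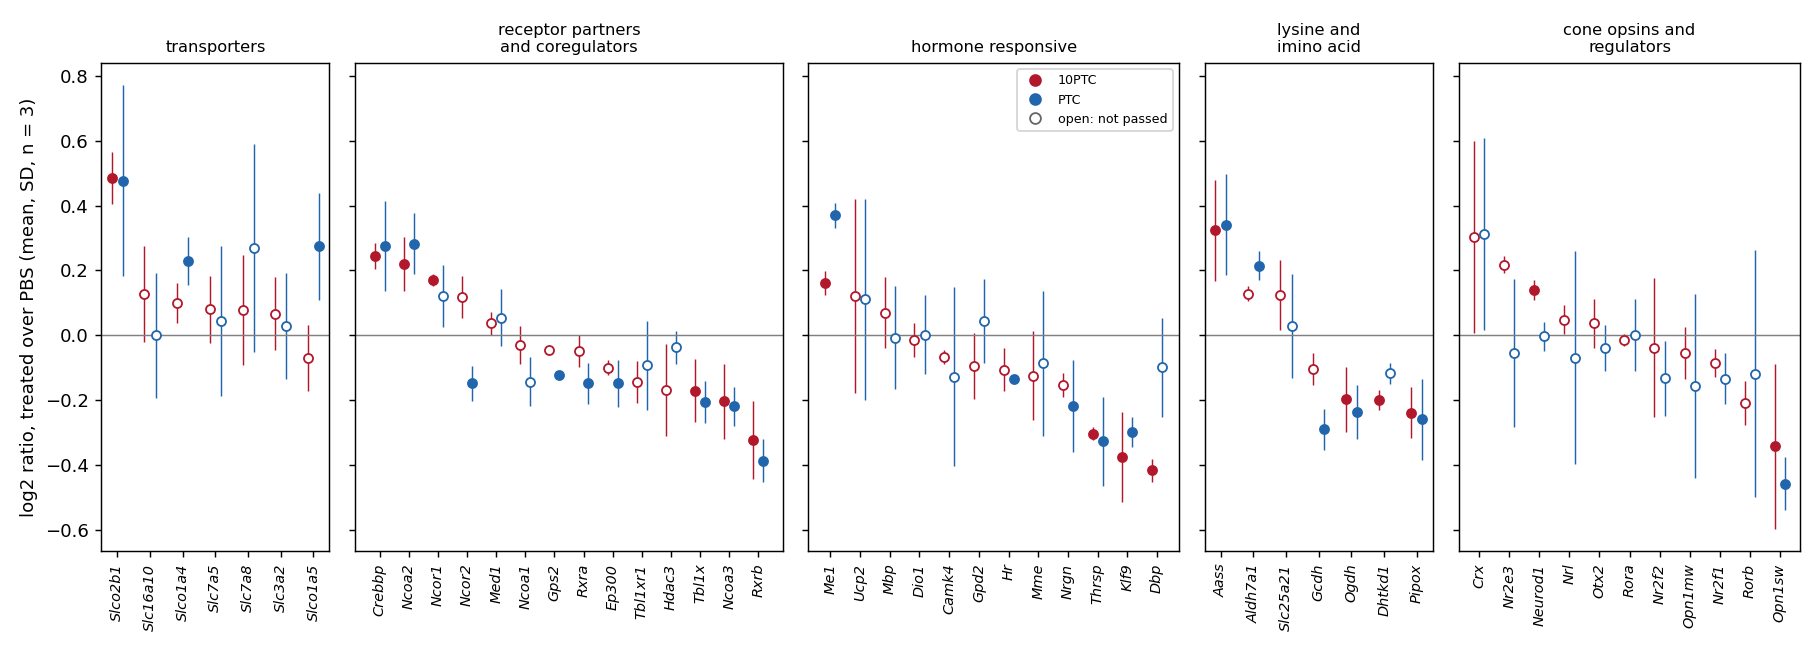
Mean log2 ratio of treated over PBS for measured pathway genes in 5 lists, with 10PTC in red left of PTC in blue, and SD over 3 arrays as bars. Filled points passed limma's adjusted p of 0.05, and no filled transporter lies below 0, while the other lists hold filled points on both sides.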

How the data were processed

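Retinal RNA was measured on 6 two-colour Agilent arrays. The authors deposited scanner files with spot intensity values and log10 ratios in 2 channels, made with Agilent Feature Extraction 10.7.3.1 per the file headers (the submitters' processing notes name 9.3.2.1). They also deposited a table of log2 ratios, whose columns correlated with the scanner ratios at 0.983 to 1.00 with a slope of 3.32, and had medians of -0.075 to 0.039. It thus runs as Cy5 over Cy3, its exact centring is unknown, and it served as an alternative.

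Here, mean signals were corrected with the local background by normexp (offset 50) and loess-normalized within arrays (control spots had weight 0) using limma 3.58.1 in R 4.3.3. Files were read with data.table (release 1.17.8). Outlier spots (185 to 274 per array) were left out and none was saturated. A filter for signal well above background in either channel, on 3 or more arrays, removed 6918 of 39429 probes. Names came from RefSeq by accession for 26055 probes, by symbol for 3195 and by synonym for 930, and 9249 kept the file's name. Each gene was read from its brightest probe. All 12 member probes passed. Signal over background, and the number of arrays, limit the precision.

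The limma model had a coefficient per dose (4 residual degrees of freedom) over all 6 arrays, with Benjamini-Hochberg adjustment over 26153 genes and a threshold of 0.05. The ratio to PBS is tested against 0. Whether the PBS RNA was 1 pool, no source used here gives. The limma step alone was tested on simulated data, made as log2 ratios with known changes. The members and the gene lists were chosen with earlier results of these data known. The text names all members, up to 3 genes per list and dose with the smallest p that passed with 1 sign on the 3 arrays of that dose, the 2 brightest markers of a cell type and the 6 genes nearest to Crym; Gfap, Opn1mw and the second dose of a named gene are given for reference. A gene that meets the rule is not reported here. Alternatives were other background corrections, normalizations, filters and probe rules, the authors' table, the doses fitted alone, slide and replicate blocks, single slides, the Cy5 channel alone and each array left out. Replicate numbers did not pair the arrays, since same-numbered arrays of the 2 doses correlated at -0.27, 0.15 and 0.20 in their deviations.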

Additional observations from a re-analysis of the deposited data

Results flagged for a closer look

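One result stood out. In the PBS channel, which should carry like RNA on all 6 arrays, PTC replicate 2 stood apart for Crym. Its normalized log2 signal was 13.34, against a median of 13.12 on the others, and its gap to the nearest array was 0.780 of the whole range. The same array had the lowest Crym ratio, 1.20. Chance sets apart an array in about 1 in 20 such groups, and 12 probes were examined.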

How the results depend on the processing

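The Crym ratio against PBS stayed above a doubling in every setting run, at 1.40 to 2.12 for PTC and 1.77 to 2.102 for 10PTC. At 10PTC it was 2.102 with median centring, 1.98 with the slide as a block, and 1.77 to 1.91 with an array left out. Its difference between doses changed sign, at -0.00012 in the authors' table, -0.083 in Cy5 alone and -0.30 to 0.42 with an array left out. So did that of Thra (-0.029 in Cy5 alone), Thrb (-0.016 with the mean of probes, -0.023 to 0.093 with an array left out), Rxrg (-0.011 in Cy5 alone, -0.020 to 0.056 with an array left out) and Slco1c1 (-0.062 in Cy5 alone, -0.057 to 0.167 with an array left out). None passed in any setting.

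Counts moved more. For PTC against PBS, 8655 genes passed (24 of the pathway), against 4608 (12) with each dose fitted alone, 289 (0) within slide 1, 1709 (2) within slide 2 and 5000 to 7860 (12 to 21) with an array left out. For 10PTC against PBS, 7235 genes passed (18 of the pathway), against 4446 (10) with processed signals, 14661 with median centring, 4584 (10) in the authors' table, 1008 (0) with the slide as a block and 1350 to 9119 (2 to 22) with an array left out. With the replicate block, which pairs arrays by number only, 4808 (10) passed. With median centring 9651 rose and 5010 fell at 10PTC, and 8208 rose and 4236 fell at PTC, against 3764 and 3471 at 10PTC and 4404 and 4251 at PTC with loess. Median centring moved the median of all genes to 0.08 and 0.05. Between doses, 20 genes passed in Cy5 alone and 0 to 1 with an array left out. The cause of these shifts was not tested. Of 342 described values 319 moved by less than 1 SD, and of 982 tested values 859 kept their side of the threshold and their sign, 110 no longer passed and 13 changed sign. Part of the described values could not move, since a dose mean stays the same when an array of the other dose is left out. These totals are therefore no measure of robustness.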
